A study of Drosophila ananassae with 22 samples.

Results

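The Enhancer of split complex, E(spl), is a cluster of small genes that are switched on by Notch signaling. It was followed here as 10 of the 8758 genes of a table of promoter activity in embryos of *Drosophila ananassae*. The genes were chosen by the FlyBase identifier of their *D. melanogaster* counterpart, which heads each row, and all 10 were in the table. Of these, 7 encode basic helix-loop-helix (bHLH) proteins: E(spl)mdelta (FBgn0002734), mgamma (FBgn0002735), mbeta (FBgn0002733), m3 (FBgn0002609), m5 (FBgn0002631), m7 (FBgn0002633) and m8 (FBgn0000591). The other 3 encode proteins of the Bearded family: malpha (FBgn0002732), m2 (FBgn0002592) and m4 (FBgn0002629). They are called here by these short names.

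When a Notch ligand on one cell binds the receptor on its neighbour, the intracellular part of Notch is released, enters the nucleus and activates its target genes together with Suppressor of Hairless. In *D. melanogaster* the bHLH proteins of the complex then repress proneural genes with the corepressor Groucho, so that only some cells of the neuroectoderm or of a proneural cluster become neural precursors. The Bearded proteins bind the ubiquitin ligase Neuralized, which is needed in the signal-sending cell for Notch ligands to work, and inhibit it. All roles given below come from *D. melanogaster* and stand as background.

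Whole embryos of the wild-type reference genome strain In(3R)A were collected in 22 windows of 1 hr after egg laying, and no group was mutant or treated. Each collection gave 1 library, barcoded at reverse transcription and pooled with the others before sequencing. RAMPAGE reads the 5' ends of capped transcripts, so that a level, given as reads scaled to the depth of the library (RPM), counts transcript starts and does not depend on transcript length. The collections served as a time course, and for tests of direction they were grouped by age into 5 periods: 0-3 hr (3 collections), 3-7 hr (4), 8-13 hr (5), 13-17 hr (4) and 17-22 hr (5).

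The 7-8 hr library had 600 reads and none in the 10 genes, where 3 reads would stand for 5000 RPM, so it was left out. The other 21 had 1211764 to 12595472 reads, and 1 read was worth 0.0794 to 0.825 RPM. Over 7207 genes that reached 10 RPM, 20 of the 21 libraries were most like a neighbour in the series, with Pearson correlations of 0.937 to 0.982 over genes. The library that was not, 19-20 hr, is also the least deep. No collection had a replicate. The collections of a period differ in age, so the p-values measure the spread among collections, which holds change with age. Intervals on single values are exact Poisson or binomial ones at 95% and cover counting error only. In RNA of whole embryos, fewer cells of a type and less RNA per cell cannot be told apart.

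All 10 genes started from 1 short stretch of the genome. Their 13 transcription start site clusters (TSCs) lay within 44.5 kb of scaffold 13340 of the *D. ananassae* assembly (FlyBase r1.3), and 7 of the genes had 1 TSC. From low to high coordinates the main TSCs were those of m8, m7, m5, m4, m3, m2, malpha, mbeta, mgamma and mdelta. Neighbouring main TSCs were 2629 to 6756 bp apart, with a median of 5469 bp. Those of m5, m4, m2 and mbeta were on the plus strand and the other 6 on the minus strand. The TSC of m8 spanned 11278171 to 11278197 and that of mdelta, at the other end, 11322529 to 11322701. Rows of the gene table were placed by their reads: 9 rows held in every collection exactly the reads of 1 *D. ananassae* gene, FBgn0093823 for m8 and FBgn0093817 for mgamma among them. The row of mbeta had 910 reads, and the nearest sum, of FBgn0095243_01 and the neighbouring unattributed TSC RAMPAGEpeak_001628, had 916, so its position is the least certain. What the annotation places at each TSC (exon, intron or UTR) was not analysed here.

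**Figure D1:**
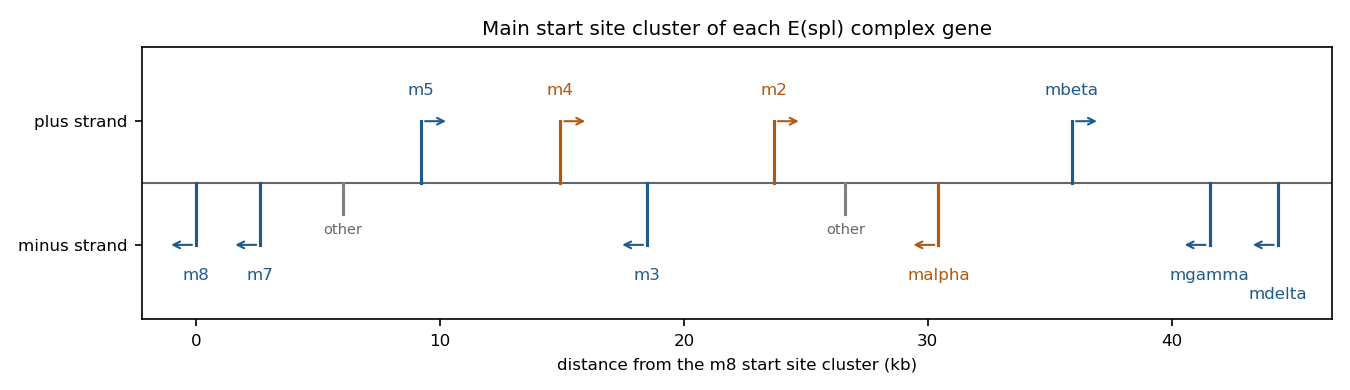
Position of the main TSC of each gene (horizontal axis, kb from that of m8; arrows point in the direction of transcription, plus strand above and minus strand below; blue bHLH, brown Bearded family; grey, the 2 attributed TSCs of other genes). The 10 genes lie on both strands along 44.5 kb, with the Bearded genes in the middle.

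Most of the main TSCs were narrow. Their width ranged from 19 bp, in m5 and mbeta, to 173 bp, in m2 and mdelta, with a median of 27.5 bp. In 5525 main TSCs of attributed genes within the same range of reads (737 to 19341) the median was 98 bp (interquartile range 74 to 130 bp). The TSCs of m4 (137 bp), m2 and mdelta were wider than the upper quartile of that set, and the other 7, at 19 to 31 bp, were below its lower quartile.

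Within the stretch, 14 further TSCs were called. Of these, 12 were attributed to no gene and held 12 to 147 reads each, 476 in all against 70869 in the TSCs of the 10 genes. The other 2 belonged to genes and are named here after their values were seen. Their RPM come from the TSC table, whose scale differs: m5 at 5-6 hr, with the same reads, was at 970 RPM there against 949 RPM. FBgn0093821_01, between m7 and m5, was at 25.3 RPM at 6-7 hr, 132 RPM at 8-9 hr and highest at 138 RPM at 9-10 hr. FBgn0093819_02, between m2 and malpha, was at 9.39 RPM at 6-7 hr and highest in the last collection, at 541 RPM. Both thus had their highest level later than most or all of the 10 genes around them, and neither was in the tests of the complex. Their *D. melanogaster* counterparts were not identified, so they may be further genes of the complex. Sums and shares of the complex, and those of its Bearded genes, cover the 10 genes only.

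The 10 genes together gave a single pulse. The summed level of the 10 genes was 107 RPM at 0-1 hr and 325 RPM at 2-3 hr. It then stood at 1914 RPM at 3-4 hr, 2268 RPM at 4-5 hr, 4769 RPM at 5-6 hr and 3218 RPM at 6-7 hr. After the gap at 7-8 hr it was 1130 RPM at 8-9 hr, 434 RPM at 10-11 hr, 128 RPM at 13-14 hr and between 13.0 and 23.7 RPM in the 5 collections from 17 hr on. From 1-2 to 2-3 hr 7 of the 10 genes were already higher by more than counting error, and 0 were lower. From 2-3 to 3-4 hr each of the 10 was higher by more than counting error. Over all genes that reached 10 RPM, the median log2 change of RPM + 1 was 0 and 0.04 in these steps. The genes outside the complex that rose by more than counting error were not counted. In *D. melanogaster* the hours from 3 to 7 cover gastrulation and germ band extension, when neuroblasts segregate from the neuroectoderm. The paper aligned the series of the other species to that of *D. melanogaster*, but the hours used here were not aligned, so stages may differ.

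**Figure D2:**
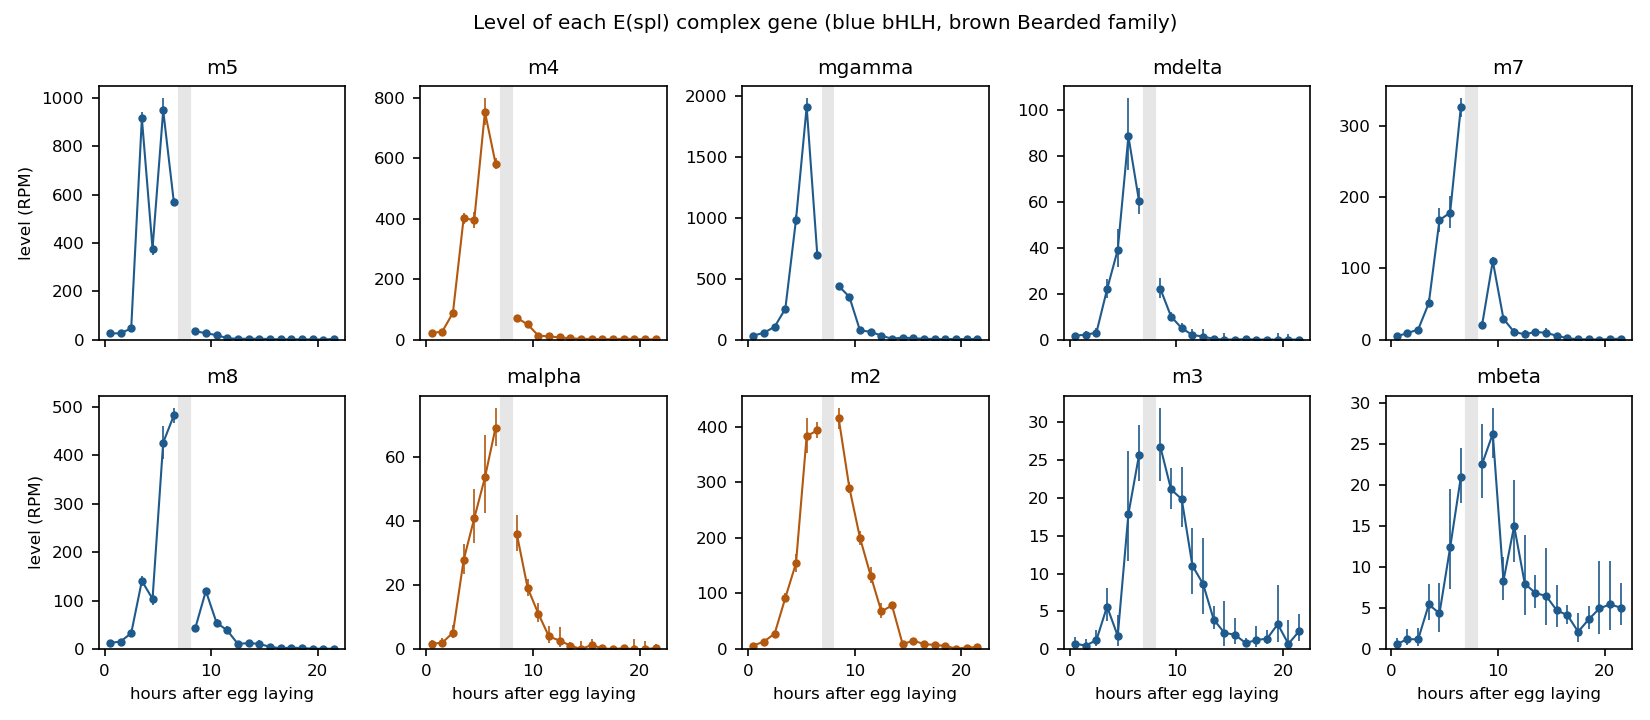
Level of each gene in RPM (vertical axis, linear, a different range for each gene) by hours after egg laying, 1 library per point with its exact 95% Poisson interval (grey band, 7-8 hr, left out; blue bHLH, brown Bearded family). The levels fall away after 6-7 hr in m5, m4, m7 and m8, while m2, m3 and mbeta at 8-9 hr are within counting error of 6-7 hr.

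Each of the 10 genes changed with time by limma's F test of a smooth curve (natural spline, 4 degrees of freedom) on log2(RPM + 1). Of all 7207 genes tested 92.9% did so, so the count says little about the complex. The adjusted p (limma, Benjamini-Hochberg over all genes tested) ran from 1.33e-14 for m4, rank 37 of all genes, to 1.62e-07 for m3, rank 2359. The highest collection was 5-6 hr in 4 genes, 6-7 hr in 3, 8-9 hr in 2 and 9-10 hr in 1. Collections at 6-7 and 8-9 hr border the missing 7-8 hr library, where a higher level would not be seen. For m2 and m3, 8-9 hr was within counting error of 6-7 hr, and for mbeta 9-10 hr was within that of 8-9 hr. The intervals of m5 at 5-6 hr (949 RPM, 900 to 1000) and 3-4 hr (916 RPM, 890 to 943) overlapped. So did those of m2 at 8-9 hr (396 to 434 RPM) and 5-6 hr (352 to 416 RPM). With TMM scaling (trimmed mean of M values, which sets libraries to the bulk of their genes) the highest collection of m5 was 3-4 hr. The best window of 8 hr held at least 60% of the expression in all 10, against 44.7% of all genes tested, and the median share in it was 92.7% against 57.5%. The median Shannon entropy over the collections was 2.83 bits against 4.06 bits (lower means fewer collections), and the median highest level 370 RPM against 72.4 RPM.

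The highest levels spanned a 72.7-fold range (64.4 to 82.2). mgamma came first, at 1907 RPM (1837 to 1979), and m5 (949 RPM), m4 (753 RPM), m8 (482 RPM), m2 (415 RPM) and m7 (326 RPM) followed. The highest levels of mdelta (88.7 RPM), malpha (69.3 RPM), m3 (26.8 RPM) and mbeta (26.2 RPM) were all below 100 RPM. Of neighbours in this order, m3 and mbeta could not be told apart, with a ratio of 1.02 (0.818 to 1.26). The ratio was 1.28 (1.05 to 1.56) for mdelta to malpha, and in each of the other pairs of neighbours the interval of the ratio also lay above 1.

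The bHLH gene with the highest level at 3-4 hr was m5. It stood at 25.6, 25.7 and 46.6 RPM in the 3 collections of 0-3 hr, and at 916, 377, 949 and 569 RPM in the 4 of 3-7 hr. The lowest of the later collections was above the highest of the earlier ones. Between 2-3 and 3-4 hr it was 19.7-fold higher (17.3 to 22.5), whereas mgamma was 2.40-fold higher (2.17 to 2.66) and m4 4.53-fold (4.09 to 5.03). At 3-4 hr m5 gave 47.9% (95% Wilson interval 46.9 to 48.9) of all reads of the complex. No other collection before 10 hr had another gene than mgamma in first place. At 4-5 hr m5 was 2.43-fold lower than at 3-4 hr (2.26 to 2.62), a dip that m8 (1.36-fold, 1.17 to 1.58) and m3 (3.24-fold, 1.13 to 12.7, on 28 and 4 reads) also had.

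m5 was also far lower after the gap at 7-8 hr, so how abruptly it fell is not known. It was at 34.5, 26.4, 18.3, 5.92 and 2.65 RPM in the 5 collections of 8-13 hr, all below the lowest of 3-7 hr. From 6-7 to 8-9 hr it was 16.5-fold lower (14.0 to 19.5), with m7 (15.7-fold, 12.8 to 19.5), m8 (11.3-fold, 9.77 to 13.1) and m4 (8.18-fold, 7.30 to 9.18) after it. For m7 and m8 this rests on the 8-9 hr library. From 6-7 to 9-10 hr m5 was 21.5-fold (19.1 to 24.3) and m4 11.5-fold (10.6 to 12.6) lower. Over the same step m8 was only 4.02-fold (3.78 to 4.29) and m7 2.96-fold (2.76 to 3.17) lower. m4, a Bearded gene whose overexpression gives extra sensory bristles, had a profile correlated with that of m5 (Pearson correlation 0.976 over 21 collections). Single steps differed: from 3-4 to 4-5 hr m5 was 2.43-fold lower (2.26 to 2.62), while m4 stayed within counting error (ratio 0.988, 0.913 to 1.07). m4 stood at 21.5, 26.4 and 88.4 RPM in 0-3 hr, at 401, 396, 753 and 582 RPM in 3-7 hr, and at 71.2, 50.4, 13.1, 10.3 and 7.30 RPM in 8-13 hr. Its 3 groups of collections did not overlap in either step to and from 3-7 hr.

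mgamma, the bHLH gene with the highest level, is also active in neural stem cells of the larva. It was at 32.1, 55.8 and 105 RPM in 0-3 hr and at 252, 983, 1907 and 690 RPM in 3-7 hr. It was then at 438, 351, 74.5, 63.9 and 31.8 RPM in 8-13 hr, where 8-9 and 9-10 hr lay above the lowest collection of 3-7 hr. mdelta, its neighbour, which acts in the choice between photoreceptors R3 and R4 in the eye, followed it at a much lower level (correlation 0.960). It reached 88.7 RPM at 5-6 hr and had 0 reads in all 5 collections of 17-22 hr, where 3 reads would be worth 0.376 to 2.48 RPM by depth.

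m7 and m8 lie side by side and their profiles were correlated (0.963), but they differed within 3-7 hr. From 3-4 to 4-5 hr m7 was 3.28-fold higher (2.79 to 3.86), whereas m8 was 1.36-fold lower (1.17 to 1.58). From 4-5 to 5-6 hr m8 was 4.11-fold higher (3.53 to 4.79), while m7 stayed within counting error (ratio 1.06, 0.905 to 1.25). m8 is the gene altered in the dominant allele that gave the complex its name. It was at 12.6, 15.6 and 32.7 RPM in 0-3 hr and at 140, 104, 426 and 482 RPM in 3-7 hr. m7 was at 4.64, 9.01 and 14.0 RPM in 0-3 hr and at 51.1, 168, 178 and 326 RPM in 3-7 hr. Both had their highest level at 6-7 hr, later than m5. At 8-9 hr m7 was at 20.8 RPM and m8 at 42.7 RPM, but at 9-10 hr they stood at 110 and 120 RPM. That was 5.30-fold (4.29 to 6.60) and 2.81-fold (2.41 to 3.28) above 8-9 hr. They were the only genes of the complex higher at 9-10 than at 8-9 hr by more than counting error, and 7 of the other 8 were lower. Over all genes that reached 10 RPM the median log2 change of RPM + 1 in this step was 0.03. How many of them moved by more than counting error was not counted, so these counts are a description only. With 1 library a collection, a second rise could not be checked.

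malpha, a Bearded gene, had the profile closest to the mean of the complex (correlation 0.982). It stood at 27.8, 40.9, 53.6 and 69.3 RPM in 3-7 hr and was still at 35.8 RPM at 8-9 hr. m2, the third Bearded gene, kept its level longer. It was at 92.2, 154, 383 and 393 RPM in 3-7 hr and at 415, 290, 200, 132 and 67.7 RPM in 8-13 hr, and these ranges overlap almost fully. Its ratio of 8-9 to 6-7 hr was 1.06 (0.996 to 1.12), against 0.0607 (0.0514 to 0.0712) for m5. At 13-14 hr m2 was at 78.5 RPM, and at 14-15 hr, in the next library, 9.10-fold lower (5.17 to 17.7).

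m3 and mbeta, both bHLH genes, were the low and late members. m3 was at 5.63, 1.74, 17.9 and 25.7 RPM in 3-7 hr and at 26.8, 21.1, 19.9, 11.0 and 8.62 RPM in 8-13 hr. mbeta, whose regulatory DNA is widely used as a reporter of Notch activity in the wing, was at 5.43, 4.35, 12.4 and 20.9 RPM in 3-7 hr and at 22.6, 26.2, 8.34, 15.0 and 7.96 RPM in 8-13 hr. In both genes the ranges of the periods overlap. From 17 hr on mbeta was at 2.11 to 5.46 RPM. The highest of these, on 8 reads at 20-21 hr (2.36 to 10.8 RPM), was 20.8% of its highest level, the largest such share in the complex. That share was 12.3% in m3, on 4 reads at 19-20 hr, and 1.82% or less in each of the other 8. In absolute terms mbeta did not stand out, with a mean of 4.24 RPM in 17-22 hr against 4.21 RPM in mgamma and 4.08 RPM in m2.

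**Figure D3:**
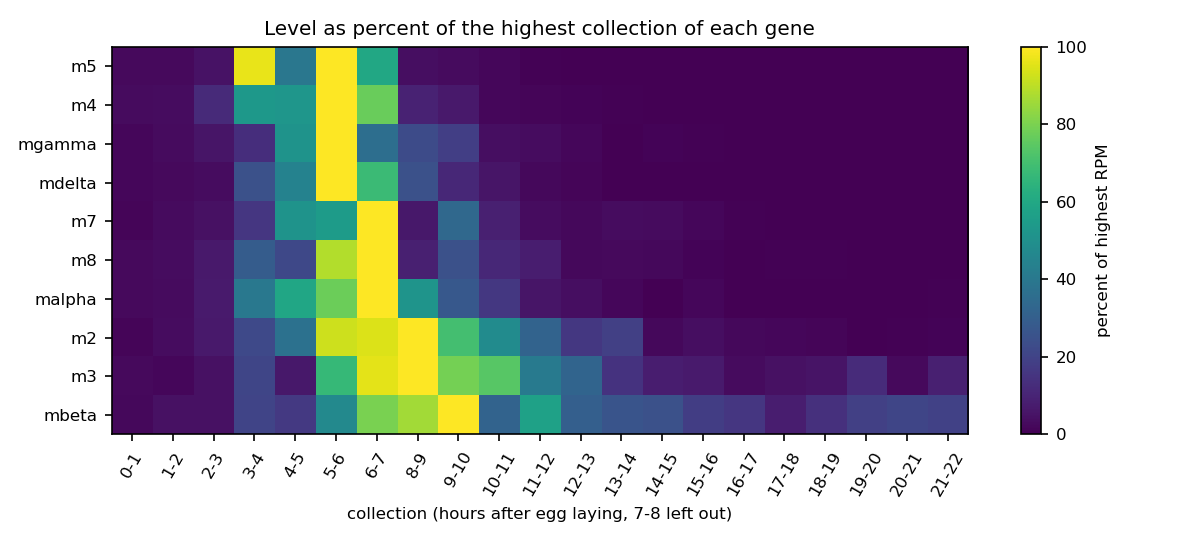
Level of each gene (rows) in each collection (columns) as a percentage of its own highest collection, by colour. m5 and m4 at the top are high from 3-4 hr to 6-7 hr, and m2, m3 and mbeta at the bottom from 5-6 or 6-7 hr to 9-10 hr or later.

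Between periods, all 10 genes were higher in 3-7 hr than in 0-3 hr, a call that 16.3% of all genes tested had. On the log2(RPM + 1) scale, which understates the change of low genes, the differences ran from 2.34 ± 0.45 (SE) for mbeta to 4.35 ± 0.63 for m5. The median was 3.73 in the complex and 0.04 over all genes tested. The adjusted p (limma) lay between 1.24e-05, for mdelta, and 0.00177, for m3. None of the 10 had overlapping collections in the 2 periods. In m3 the gap was within counting error, with 1.74 RPM (0.474 to 4.46) at 4-5 hr against 1.18 RPM (0.434 to 2.58) at 2-3 hr. How many of all genes tested lacked overlap was not counted, in this step or the later ones, so overlap is a description only.

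From 3-7 to 8-13 hr the genes parted. m5 (−5.59 ± 0.55, adjusted p = 2.89e-07), m4 (−4.56 ± 0.53, adjusted p = 1.23e-06), mdelta (−2.90 ± 0.48), m7 (−2.69 ± 0.61), mgamma (−2.66 ± 0.66), m8 (−2.48 ± 0.59) and malpha (−2.07 ± 0.50) fell in the limma fit. These 7 stand against 18.3% of all genes tested that were called lower. For m5 and m4 the collections did not overlap, and for the other 5 they did. m2 (−0.22 ± 0.64, adjusted p = 0.806), m3 (0.81 ± 0.50, adjusted p = 0.195) and mbeta (0.62 ± 0.40, adjusted p = 0.209) did not pass, so none of the genes was called higher, against 28.5% of all genes tested. Without the 6-7 hr library, in which m3 and mbeta were at their highest of 3-7 hr, both were called higher (adjusted p = 0.0375 and 0.0427, limma).

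From 8-13 to 13-17 hr all 10 genes were called lower, against 25.8% of all genes tested. The differences ran from −1.26 ± 0.40 (mbeta) to −3.59 ± 0.66 (mgamma), with a median of −2.56 against −0.45 over all genes tested. With TMM scaling the medians were −2.29 and −0.06, and the share of higher among all called genes went from 31.3% to 62.5%. mbeta (adjusted p = 0.0187) and m7 (adjusted p = 0.0282, both limma) no longer passed with TMM scaling, at adjusted p = 0.0818 and 0.0915. Nor did mbeta by edgeR (adjusted p = 0.0577) or m7 with a pseudocount of 0.1 RPM (adjusted p = 0.0651). Leaving out the 9-10, 15-16 or 16-17 hr library also ended both calls, and leaving out 8-9 hr that of mbeta and 10-11 hr that of m7 (adjusted p = 0.0523 to 0.121 over these). The collections of m5, m7, m8 and m2 overlapped between these periods, and those of the other 6 did not. In mbeta, m4, mdelta and malpha, though, the gap was within counting error. In mbeta it lay between 7.96 RPM (4.11 to 13.9) at 12-13 hr and 6.83 RPM (5.05 to 9.03) at 13-14 hr.

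In the last step, 17-22 against 13-17 hr, 2 genes were called lower and none higher, where 8.71% and 4.7% of all genes tested were. m7 was at 10.7, 9.34, 5.35 and 1.91 RPM in 13-17 hr and at most 1.18 RPM after it (−2.24 ± 0.61, adjusted p = 0.0163, limma). m2 was at 78.5, 8.62, 15.4 and 8.81 RPM and then at most 7.55 RPM (−2.07 ± 0.64, adjusted p = 0.0348). The ranges did not overlap in either, though the gaps were within counting error. Neither call held without the 13-14 hr library (adjusted p = 0.0752 and 0.194, limma). The call of m7 was also lost without 14-15 hr (adjusted p = 0.0636), and that of m2 without 15-16, 19-20, 20-21 or 21-22 hr (0.0551 to 0.0917) and with TMM scaling (0.0569) or edgeR (0.0546). m8 (−1.57 ± 0.59, adjusted p = 0.0809) passed without 12-13 or 16-17 hr (0.0446 and 0.0237). At this age most values rest on few reads. With TMM scaling the share of higher among all called genes went from 35.1% to 55.0%.

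**Figure D4:**
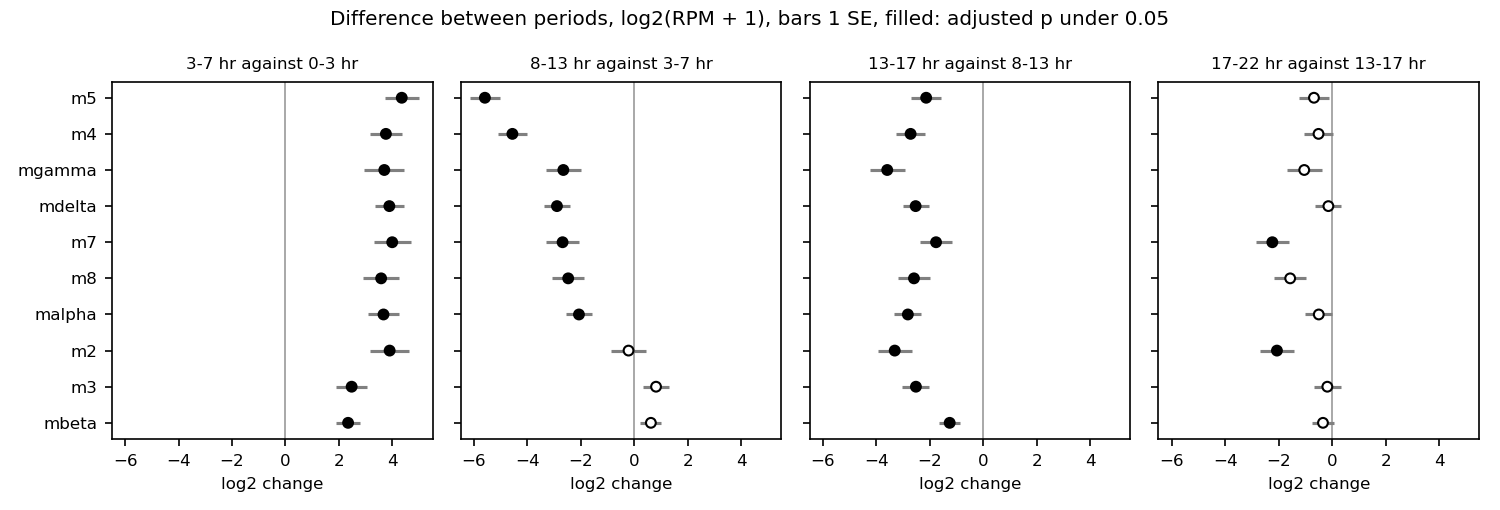
Difference between successive periods of each gene (horizontal axis, log2 of RPM + 1, later minus earlier; bars 1 SE; filled points, adjusted p under 0.05 by limma). All 10 points lie to the right in the first step and, in the second, 7 filled points lie to the left while those of m2, m3 and mbeta are open.

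The pulse therefore differed in make-up from hour to hour. mgamma gave most reads of the complex in the collections of 0-3 hr and from 4 to 10 hr, with 21.5% (20.9 to 22.0) at 6-7 hr to 43.3% (42.0 to 44.7) at 4-5 hr. From 10 to 14 hr m2 gave most, with 46.1% (44.0 to 48.2) at 10-11 hr and 61.5% (58.3 to 64.6) at 13-14 hr. The 3 Bearded genes together gave 27.2%, 26.1%, 24.9% and 32.5% in the 4 collections of 3-7 hr. In the 5 of 8-13 hr they gave 46.2%, 35.1%, 51.7%, 49.9% and 52.5%, all above the earlier ones, and most of this was m2. After 14 hr the complex had 19 to 320 reads a library, so that shares are loose: at 20-21 hr mbeta gave 8 of 19 reads, 42.1% (23.1 to 63.7).

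**Figure D5:**
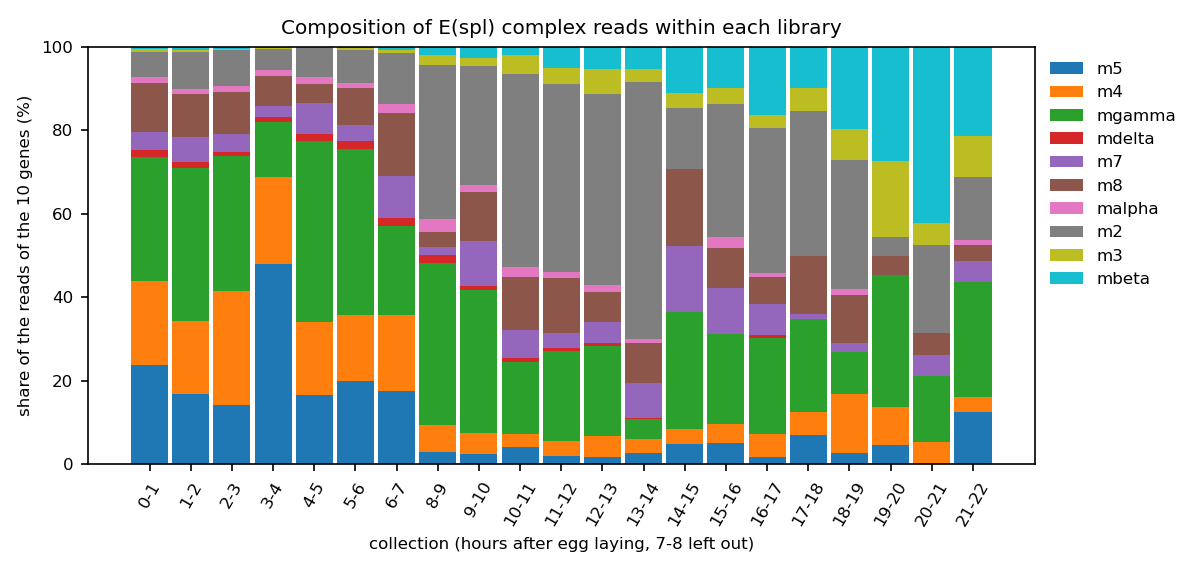
Share of each gene (colours) in the reads of the 10 genes within each library (vertical axis, percent; horizontal axis, collection). m5 takes 47.9% at 3-4 hr, mgamma 40.0% at 5-6 hr and m2 61.5% at 13-14 hr.

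The profiles of the 10 genes were alike, though not to the same degree. Over the 21 collections, the correlation of log2(RPM + 1) between 2 of them ran from 0.228 (mbeta and m5) to 0.979 (mdelta and malpha), with a median of 0.881 over 45 pairs. The median over all pairs of the 7207 genes was 0.135. Collections share their library and its depth across genes, and these values are a description. Some neighbours along the scaffold were among the most alike, as m5 and m4 (0.976), m7 and m8 (0.963) and mdelta and mgamma (0.960). Others were not: mbeta lies between malpha (0.539) and mgamma (0.450) and was most like m3 (0.879). Outside the complex, the genes closest to its mean profile were FBgn0033802 (0.977), FBgn0039678 (0.974) and FBgn0011260 (0.969), all with their highest level at 6-7 hr. Many outside genes were closer to that mean than some members were: 1797 than mbeta, 618 than m3 and 138 than m5. For each of the other members it was 65 or fewer, and 0 for malpha. The mean includes each member itself and no outside gene, which favours the members in these counts.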

How the data were processed

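RAMPAGE libraries of 22 collections of *D. ananassae* embryos were used, with ages from the sample labels. Per the study's methods, STAR was the aligner, r1.3 the assembly, and TSCs came from a peak caller run on the pooled reads. In the deposited gene and TSC tables the unit is RPM as scaled by the authors, and the scale differs between them. With the same reads, m5 at 5-6 hr was at 949 RPM in the gene table and at 970 RPM in the TSC table. Depths given here are those by which the gene table was scaled. The deposited table of smoothed Z-scores was not used, and 0 columns of other samples were found. Reads were recovered by dividing by the value of 1 read, and 100% of the values came out whole within 0.1 read.

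The depth ran from 1211764 to 12595472 reads without the 7-8 hr library. log2(RPM + 1) was fitted by limma 3.58.1 in R 4.3.3 for genes with a maximum of at least 10 RPM, with a natural spline of mid-collection time (4 degrees of freedom) or with 5 periods, and Benjamini-Hochberg adjustment at 0.05. The alternatives were pseudocounts of 0.1 and 5 RPM, no filter or one at 25 RPM, TMM scaling, edgeR 4.0.16 (quasi-likelihood test on the recovered reads), splines of 3 and 6 degrees of freedom, the 7-8 hr library included, and leaving out each collection. The nearest sum for mbeta was chosen after seeing the data. The tests were tested on simulated data.

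Named are all 10 genes and the 3 outside genes whose log2(RPM + 1) correlated best with the mean standardized profile of the 10. The lists of other Notch pathway, Bearded, bHLH and proneural genes are not used here, since the reference table at hand, of assembly ASM1763931v2, does not link the identifiers to symbols. It holds no sequences, so none is shown. The members and lists were chosen with earlier results of these data known.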

Additional observations from a re-analysis of the deposited data

How the results depend on the processing

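All 10 genes passed the test of change with time under the alternatives run, except that mbeta did not with the 7-8 hr library included (adjusted p = 0.055, limma). Of 300 tests of single genes, 299 were on the same side of the threshold. Leaving out 1 collection at a time gave 10 calls in 3-7 against 0-3 hr, 7 to 9 in 8-13 against 3-7 hr, 8 to 10 in 13-17 against 8-13 hr and 0 to 3 in 17-22 against 13-17 hr. Of the 10 calls in 13-17 against 8-13 hr, 9 held with a pseudocount of 0.1 RPM, 8 with TMM scaling and 9 with edgeR. The 2 calls of the last comparison became 0 with a pseudocount of 5 RPM, 1 with TMM scaling and 1 with edgeR's quasi-likelihood test, and the lowest number, 0, came without the 13-14 hr library. With TMM scaling the highest collection of m5 was the one that starts at 3 hr, and the mean summed level in 17-22 hr was 26.5 RPM in place of 19.0 RPM. TMM moved the median log2 difference over all genes from 0.04 to 0.18 in 3-7 against 0-3 hr and from −0.24 to −0.04 in 17-22 against 13-17 hr. No paired analysis was possible because each collection has 1 library. Depth limits the late values most: 3 reads were worth up to 2.48 RPM.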
